A study of Drosophila melanogaster with 24 samples.

Results

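The trimethylated form of histone H3 lysine 27 (H3K27me3) was mapped by chromatin immunoprecipitation and sequencing in heads of 40-day-old flies of the label LKRSDHMB01942 mutant and of 40-day-old w1118 control flies. The comparison used 4 of the 16 peak lists of the series, namely 2 mutant libraries and 2 control libraries, chosen by their antibody, age and genotype labels alone. All flies were mated males, and each library came from a pool of heads. The mutants were homozygous for a transposon insertion in LKRSDH and had been backcrossed into w1118, which carries the white mutation that both groups therefore share. The same mark in 3-day-old flies of both genotypes, and the dimethylated form of H3 arginine 17 (H3R17me2) in 40-day-old flies, with 2 libraries a group, were used only for reference. Replicate libraries were described as biological repeats, and 1 homozygous allele was profiled, so that allele and gene cannot be told apart.

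H3K27me3 is written by Polycomb repressive complex 2, whose catalytic subunit in Drosophila is E(z), and it is bound by Polycomb itself in complex 1. In flies it forms broad domains over silenced developmental regulators such as the Hox clusters, and it also lies more thinly over genes that are off in a tissue. LKRSDH encodes the bifunctional enzyme that starts lysine breakdown, and Art4 is the fly methyltransferase for H3R17. The study asked how LKRSDH bears on histone marks at the insulin-like peptide genes in old flies.

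The unit of measurement was the covered share, the percent of the bases of a gene body or window that lay under a peak of that library. The deposited peak lists hold no read counts, so the number of reads behind each library is not known from them and no counting interval was computed. In whole heads a mark on fewer cells and less mark per cell cannot be told apart.

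The Polycomb landscape of the old mutant heads was the control landscape in its main outlines. Of the bases on the chromosome arms under a peak in at least 1 of the 4 libraries (56.7 Mb), 55.6% were covered in all 4 libraries, 2.66% were covered in both mutant libraries and neither control, and 2.30% were covered in both control libraries and neither mutant. A further 15.5% were covered in 1 library only, which is more than both genotype-specific classes together. The Jaccard index, the shared length divided by the joint length of a pair of lists, was 0.752 between the mutant replicates and 0.719 between the control replicates, and it ran from 0.713 to 0.731 in the 4 pairs across genotypes. A peak of 1 genotype was overlapped by at least 1 base in both libraries of the other genotype for 70.0% and 71.0% of mutant peaks and for 65.8% and 70.0% of control peaks. The mean index within a genotype exceeded the mean across genotypes by 0.0101 (exact permutation test over 3 pairings, p = 0.3333, the smallest this design allows).

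Peaks covered 44.6 and 44.9 Mb in the mutant libraries, against 45.4 and 42.1 Mb in the control libraries. The covered length averaged 44.7 ± 0.256 Mb in the mutant and 43.8 ± 2.31 Mb in the control (SD, n = 2 each; exact two-sided permutation test, p = 1), and the control values enclosed both mutant values. Without control replicate 2 the difference of 0.997 Mb turned to -0.634 Mb. The mutant lists held fewer peaks, 5730 and 4718 against 5944 and 6188 in the control, and these were longer on average, 7779 and 9524 bp against 7636 and 6807 bp. Peaks of 50 kb or more numbered 132 and 178 in the mutant libraries and 123 and 112 in the control libraries. Neither the number of peaks nor the mean length overlapped between genotypes, and 2 libraries against 2 cannot give a p below 0.3333 (exact two-sided permutation test), the value that both measures reached.

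Mutant replicate 2 stood apart from the other libraries. When only peaks with a q-value under 0.05 were kept, it retained 1967 peaks over 37.0 Mb, whereas mutant replicate 1 retained 623 peaks over 17.3 Mb, and the controls retained 757 and 947 peaks over 16.6 and 19.0 Mb. At this threshold the mean number of peaks was higher in the mutant by 443, the opposite direction to that of all peaks. The weakest peaks listed had a −log10 p of 1.00 to 1.02 in all 4 libraries, which is weaker than the p cutoff stated in the methods of the study, and the cutoff that linked broad regions is not given in the sources used here.

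**Figure D1:**
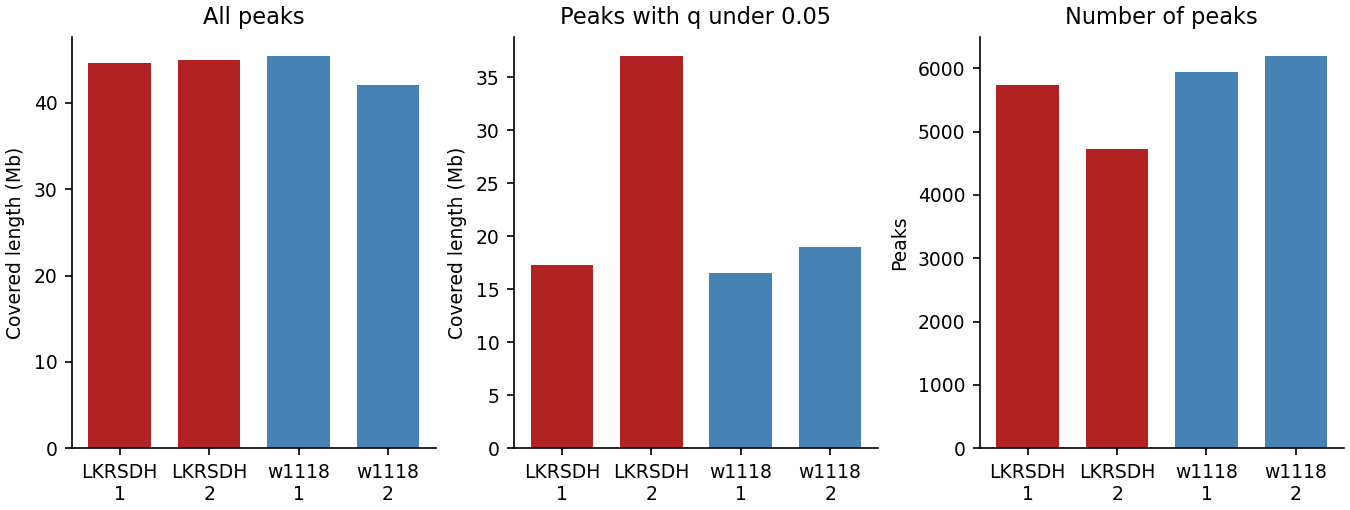
Covered length of all peaks (Mb), covered length of peaks with q under 0.05 (Mb) and number of peaks, with 1 bar a library for the 40-day-old LKRSDH mutant (red, left) and w1118 (blue, right). All peaks cover 42.1 to 45.4 Mb in every library, while at q under 0.05 mutant replicate 2 reaches 37.0 Mb and the other libraries 16.6 to 19.0 Mb.

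Peaks with nearly the same edges lay over the classical Polycomb targets in both genotypes. The peak over the Bithorax complex, the Hox cluster that specifies the posterior segments, spanned chr3R:16762541-16988028 in mutant replicate 1 and chr3R:16762567-16988241 in mutant replicate 2. In the control it spanned chr3R:16762599-16988266 in replicate 1 and chr3R:16762561-16988306 in replicate 2. Over the 4 libraries its left edge moved by 58 bp and its right edge by 278 bp, in a domain of 225488 to 225746 bp. The domain over slp1, which encodes a forkhead factor of segmentation, measured 48245 to 48567 bp, and its edges moved by 148 and 200 bp. Around eyg, a Pax gene of the eye, the domain measured 52812 to 52955 bp with edges that moved by 91 and 60 bp. The edges at wg, the Wnt ligand of segment polarity, moved by 367 and 89 bp in a domain of 84239 to 84650 bp.

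A few domains differed more in extent. The domain over the Iroquois gene ara was 184209 and 159301 bp long in the mutant libraries and 190640 and 190728 bp long in the control libraries, and the shortest came from mutant replicate 2, where its left edge lay up to 30982 bp further in. The peak over ey, the Pax6 gene on chromosome 4, was 28324 and 70887 bp long in the mutant, against 41348 and 23199 bp in the control. At en, the homeobox gene of posterior compartments, it was 106119 and 104427 bp in the mutant and 105362 and 117700 bp in the control. At ara both mutant lengths were below both control lengths, and at ey and en the lengths overlapped.

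Fold enrichment, the MACS2 ratio of immunoprecipitated signal to input background, was highest in mutant replicate 2 at the classical domains other than ey, where it was 2.08 and 1.99 in the mutant libraries and 1.78 and 2.10 in the control libraries. The Abd-B peak had a fold enrichment of 2.41 and 3.43 in the mutant libraries and 2.19 and 2.43 in the control libraries. At lbe, in the NK homeobox cluster, the values were 2.61 and 3.61 in the mutant and 2.33 and 2.62 in the control. At wg they were 2.02 and 2.68 in the mutant against 1.77 and 1.91 in the control. Mutant replicate 1 lay between the controls at Abd-B and lbe, and above both at wg. Across the 1358 genes that were wholly covered in all 4 libraries, the median fold enrichment was 1.61 and 1.81 in the mutant and 1.52 and 1.58 in the control. Both mutant libraries exceeded both control libraries at 915 of these genes (67.4%), and both fell below at 9 (0.663%). Neighbouring genes can share 1 peak, as the insulin-like peptide genes Ilp1 to Ilp4 did, so the genes are not independent values. Of the 388 genes whose mean fold enrichment was 2 or more, 269 were higher in both mutant libraries. Each ratio is relative to an input, so the enrichment efficiency of a library and the amount of mark cannot be told apart. At 3 d the same 1358 genes had medians of 1.84 and 1.66 in the mutant and 1.68 and 1.83 in the control, which overlapped.

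**Figure D2:**
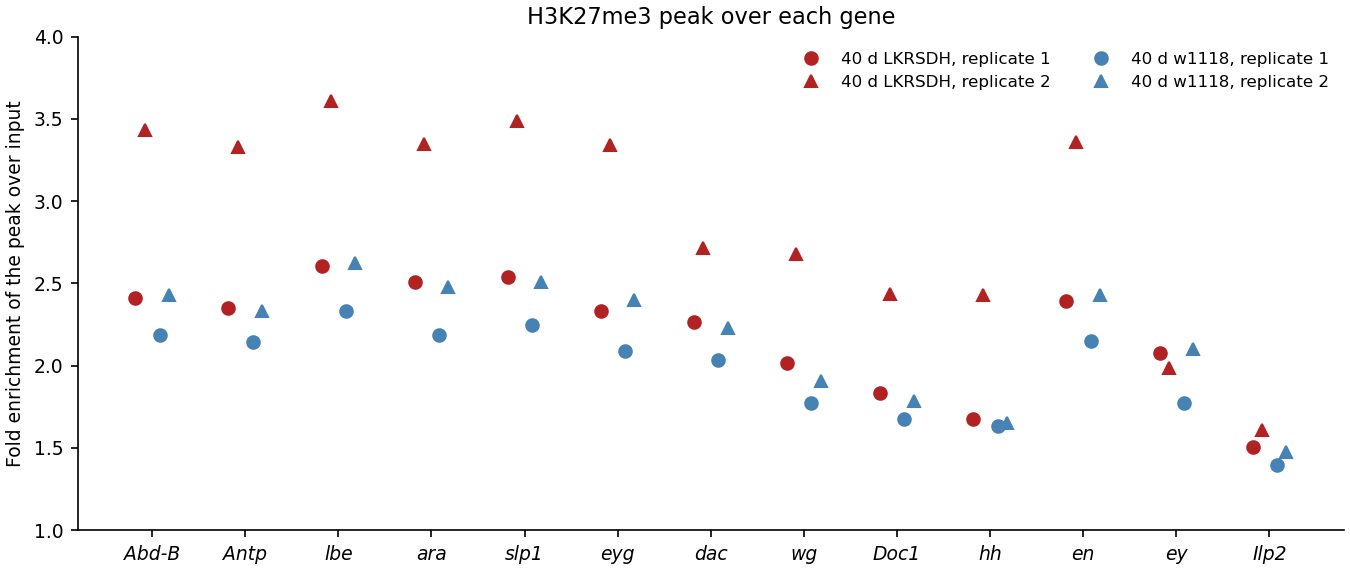
Fold enrichment over input (axis from 1) of the H3K27me3 peak over each of 13 genes, with red for the 40-day-old LKRSDH mutant and blue for w1118 and a circle or triangle for replicates 1 and 2. Mutant replicate 2 is the highest point at every gene shown except ey (1.99, against 2.08 in mutant replicate 1 and 2.10 in control replicate 2), and at Abd-B mutant replicate 1 (2.41) lies between the controls (2.19 and 2.43).

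Sequence upstream of genes is shown for a gene that gained coverage (CG32148), for genes that lost it (GstD6 and Sfp36F) and for genes covered in all 4 libraries (Abd-B and Ilp2), each chosen because its 250 bases upstream lay wholly inside or wholly outside peaks in each of the libraries. The sequences are from the RefSeq release 6 genome (dm6), written in the direction of the gene from chr3L:15023242-15023491 on the + strand, chr3R:12376878-12377127 on the + strand, chr2L:18292272-18292521 on the + strand, chr3R:16972237-16972486 on the - strand and chr3L:9799448-9799697 on the + strand. Capitals mark GAGAG, the core bound by GAGA factor, and GCCAT, the core bound by the Polycomb recruiter Pho, both also as their reverse complements CTCTC and ATGGC.
CG32148: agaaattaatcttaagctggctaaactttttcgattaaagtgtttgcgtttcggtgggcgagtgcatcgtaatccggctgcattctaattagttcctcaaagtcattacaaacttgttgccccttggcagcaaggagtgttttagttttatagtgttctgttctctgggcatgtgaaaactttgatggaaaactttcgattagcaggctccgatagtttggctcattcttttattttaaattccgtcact
GstD6: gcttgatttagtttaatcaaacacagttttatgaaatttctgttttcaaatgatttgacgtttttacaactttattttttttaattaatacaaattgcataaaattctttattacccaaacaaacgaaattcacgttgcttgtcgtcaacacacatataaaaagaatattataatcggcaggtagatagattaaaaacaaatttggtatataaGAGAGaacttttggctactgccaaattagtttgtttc
Sfp36F: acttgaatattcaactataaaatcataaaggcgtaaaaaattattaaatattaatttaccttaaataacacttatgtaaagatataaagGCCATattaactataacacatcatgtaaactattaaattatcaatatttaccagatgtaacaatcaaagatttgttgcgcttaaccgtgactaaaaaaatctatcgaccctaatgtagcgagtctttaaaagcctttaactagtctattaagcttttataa
Abd-B: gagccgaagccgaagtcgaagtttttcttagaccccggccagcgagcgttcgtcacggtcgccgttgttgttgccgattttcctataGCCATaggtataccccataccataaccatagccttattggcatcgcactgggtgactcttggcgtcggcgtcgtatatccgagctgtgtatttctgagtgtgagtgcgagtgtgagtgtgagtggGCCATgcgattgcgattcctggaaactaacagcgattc
Ilp2: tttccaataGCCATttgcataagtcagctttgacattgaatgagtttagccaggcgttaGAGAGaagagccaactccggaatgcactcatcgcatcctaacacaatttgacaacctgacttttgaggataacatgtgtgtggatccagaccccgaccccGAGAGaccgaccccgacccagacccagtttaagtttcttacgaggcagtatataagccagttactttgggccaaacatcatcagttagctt

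The Abd-B window held 2 matches to the Pho core, and the Ilp2 window held 2 matches to GAGAG and 1 to GCCAT. GstD6 had 1 GAGAG, Sfp36F had 1 GCCAT and the CG32148 window had neither. Over the 250 bases upstream of all 13945 genes, 25.7% held GAGAG and 35.7% held GCCAT on either strand. The shares were 29.5% and 38.6% for the 44 genes that gained coverage and 32.7% and 47.3% for the 55 genes that lost it, as defined next, and 31.2% and 40.5% for the 2565 genes covered by at least 50% in all 4 libraries. These are matches of letters, not measured binding sites.

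Gain and loss were defined by a gap. A gene gained coverage when its lower mutant library exceeded its higher control library by at least 50 percentage points of the gene body, and lost coverage in the reverse case. Of the 13945 protein-coding genes on chromosomes 2, 3, 4 and X, 44 gained coverage (0.316%) and 55 lost it (0.394%). With any gap above 0, 605 genes were higher (4.34%) and 411 were lower (2.95%) in both mutant libraries. The remaining genes were mostly constant, since 8457 were uncovered in all 4 libraries and 1358 were wholly covered in all 4. With any 1 of the 4 libraries left out, whether mutant replicate 1 or 2 or control replicate 1 or 2, the gap has fewer values to clear and the rule gave 155 to 199 gains and 127 to 168 losses. At 3 d the same rule gave 18 gains (0.129%) and 38 losses (0.272%).

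The genes with the largest gains were short single genes. Cpr49Af, a cuticular protein gene at chr2R:12405932-12407045, was covered over 100% and 100% of its body in the mutant libraries and 0% and 0% in the control libraries. The same complete pattern was found at AANATL6, of the arylalkylamine N-acetyltransferase-like family (chr2R:19287983-19288995), and at CheA46a, a gene of the CheA chemosensory family (chr2R:9748800-9749389). CG4375, CG33463, CG32727, CG32148, CG42579 and CG14237 were covered in the same all-or-none way, which makes 9 such genes among the gains. The other 3 of the 12 largest gains were CG13113, CG34188 and CG4983. CG4983 had 100% and 100% in the mutant libraries, against 11.5% and 12.2% in the control libraries. All 12 were separated completely by genotype at 40 d, which was fixed by the choice of genes. At 3 d, in contrast, CG33463 and CG32727 were at 0% and 0% in the mutant and at 0% and 100% in the control, and CG4375 and CG32148 were at 100% and 0% in the mutant and 0% and 0% in the control. Cpr49Af, AANATL6 and CG42579 were at 0% in all 4 libraries at 3 d.

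The largest losses were also at short genes. Mst57Da, which encodes a product of the male accessory gland (chr3R:25831575-25831899), was at 0% and 0% in the mutant libraries and at 100% and 100% in the control libraries. Sfp36F, a seminal fluid protein gene (chr2L:18292522-18292833), and CG43362, its neighbour, had the same values, as did GstD6, a glutathione S-transferase gene (chr3R:12377128-12377907). GstD5, which lies next to GstD6 and was picked out after its values were seen, was at 0% and 0% in the mutant and 72.7% and 82.0% in the control. CG14277, CG18404, CG42713, CG31609 and CG46042 were also covered completely in both controls and in neither mutant, and 10 of the 55 losses in all had this all-or-none pattern. CG46388 was at 0% and 0% in the mutant against 100% and 91.4% in the control. For CG10700 (chr2L:19077276-19079028) the mutant libraries had 4.28% and 7.02% and the control libraries 100% and 100%. It was the 1 gene of the 55 that also met the loss rule at 3 d, with 9.76% and 6.85% in the mutant against 77.8% and 80.5% in the control.

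**Figure D3:**
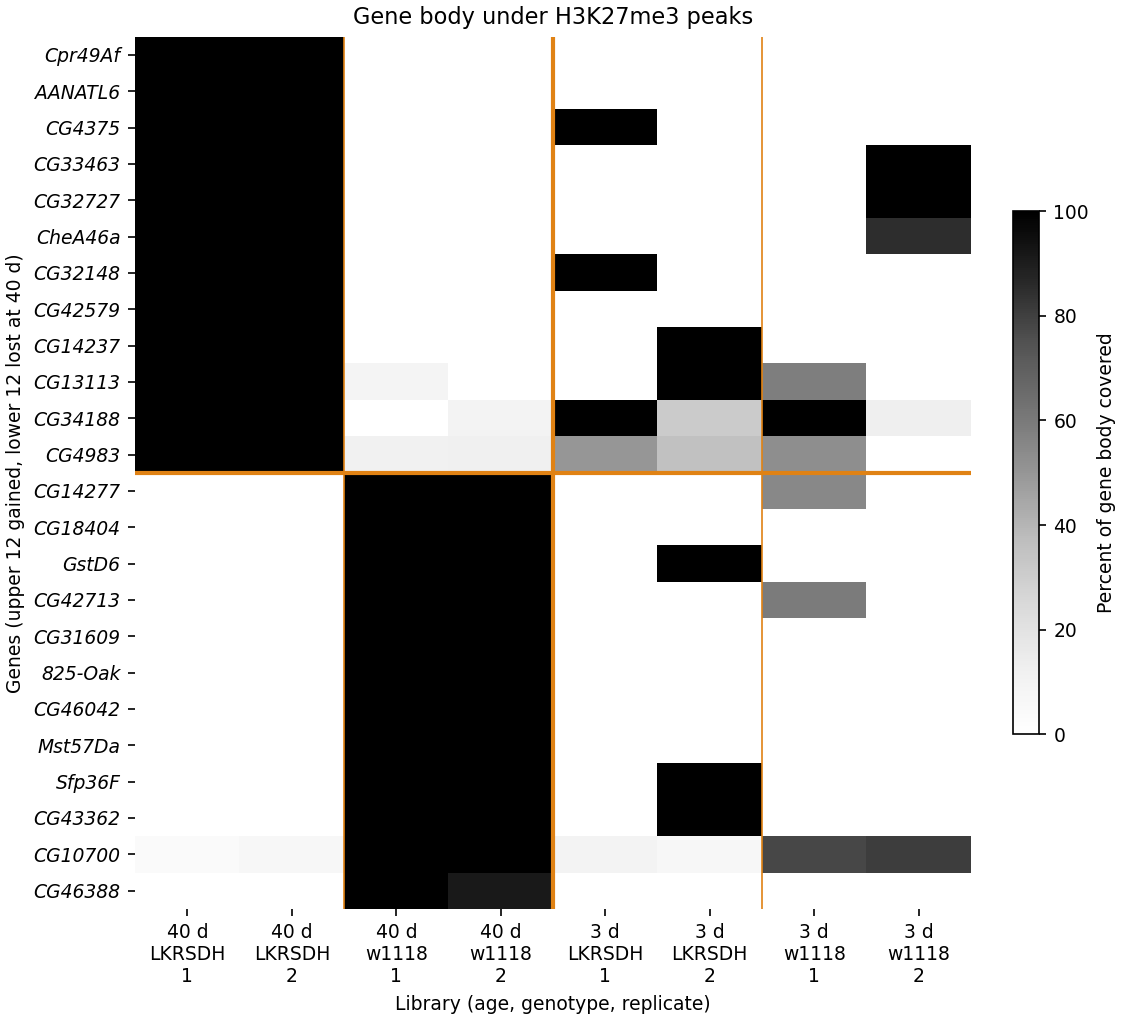
Percent of the gene body under H3K27me3 peaks (white 0, black 100) in each library for the 12 genes with the largest gains (upper rows) and the 12 with the largest losses (lower rows) at 40 d, with 40 d libraries on the left, 3 d on the right, and LKRSDH mutant columns left of w1118 columns at each age. The 40 d blocks were fixed by the choice of genes, whereas at 3 d only CG10700 keeps its 40 d pattern, with 9.76% and 6.85% in the mutant and 77.8% and 80.5% in the control.

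The changed genes were mostly small, but the rule favours short genes, since a peak of given length covers a larger share of them. The median length was 1010 bp for gains and 837 bp for losses, against 2166 bp for all genes, and 36 of the 44 gains and 51 of the 55 losses were under 2 kb, against 46.7% of all genes. Among genes of 2 kb or more the counts were 8 gains and 4 losses. At the gains the median fold enrichment of the peak was 1.45 in mutant replicate 1 and 1.43 in mutant replicate 2. At the losses it was 1.39 in both control replicates. Over all peaks of the same libraries the medians were 1.43 and 1.39 in the mutant and 1.38 and 1.41 in the control, near the values at these genes. Genes wholly covered in all 4 libraries had higher medians, 1.61 and 1.81 in the mutant and 1.52 and 1.58 in the control. Peaks with q under 0.05 lay over 3 and 25 of the 44 gains in the mutant libraries, where 10.9% and 41.7% of all peaks passed, and over 6 and 8 of the 55 losses in the control libraries, where 12.7% and 15.3% passed. When peak lists were first cut to q under 0.05, 76 genes gained and 9 lost coverage, so the balance of gains and losses depended on the threshold, at which mutant replicate 2 kept the most peaks.

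The 3 d libraries, which the rule had not used, gave little of the same separation. Of the 44 gains, 1 was higher in both mutant libraries at 3 d (2.27%) and 3 were lower (6.82%), beside 2.01% and 3.08% of all genes. Of the 55 losses, 2 were higher (3.64%) and 3 were lower (5.45%). For the 55 losses, 23 were uncovered in all 4 libraries at 3 d, as were 8 of the 44 gains. Mean covered shares of the gains at 3 d were 25.1% and 40.4% in the mutant and 33.3% and 28.3% in the control, and those of the losses were 4.48% and 26.5% in the mutant and 22.7% and 3.44% in the control.

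H3R17me2 at 40 d was a second measure that the rule had not used. Of the 44 genes that gained H3K27me3, 19 (43.2%) had more H3R17me2 coverage in both mutant libraries than in both controls and 1 had less (2.27%), beside 18.9% and 3.76% of all genes. Of the 55 genes that lost H3K27me3, 10 were higher (18.2%) and 4 were lower (7.27%). The mean H3R17me2 covered share of the gains was 52.2% and 61.9% in the mutant and 12.6% and 36.1% in the control. For the losses it was 36.0% and 60.9% in the mutant against 32.3% and 36.4% in the control. Over all genes it was 29.4% and 38.1% in the mutant and 15.6% and 29.3% in the control, and the lowest value in each set came from control replicate 1, whose H3R17me2 peaks covered 21.1 Mb against 37.4 to 47.6 Mb in the others. Which input library each list was called against is not given in the sources used here, and the part of a shared input in these counts was not tested.

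A limma fit on covered share over all 8 H3K27me3 libraries called 26 of 4869 genes with a share that varied (0.534%) at a Benjamini-Hochberg adjusted p under 0.05, of which 5 were higher and 21 lower in the old mutant. This balance turned with peaks cut to q under 0.05, where 28 of the 35 called genes were higher and 7 lower. At an unadjusted p under 0.05 it called 280 genes (5.75%). The called genes were those with almost no spread, and 8 of the 26 had identical shares within each of the 4 groups. Mst57Da, CG18404, CG31609 and CG46042 fell by 100 points and AANATL6, Cpr49Af and CG42579 rose by 100 points, each with a standard error of 3.92 and an adjusted p of 0.000996. These genes were named for their 40 d gap, so their p-values are no separate support, and each was at 0% throughout at 3 d. CG4375 had the same 40 d shares as AANATL6, but 100% and 0% in the mutant at 3 d. Its standard error was 32.1 and its limma adjusted p was 0.689. CG10700 fell by 94.35 points with an adjusted p of 0.00168. Ms, the myosuppressin neuropeptide gene, had 0% and 0% in the mutant against 44.4% and 53.6% in the control and fell by 49.0 ± 4.88 points (SE, limma adjusted p = 0.0317). Or49a, an odorant receptor gene, had 36.4% and 45.6% in the mutant and 100% and 100% in the control, a fall by 59.0 points with a limma adjusted p of 0.0160. Ms and Or49a were likewise at 0% in every library at 3 d. CG10700, Ms and Or49a were also named for their 40 d differences, so their p-values are no separate support either. The test of whether the genotype difference at 40 d differed from that at 3 d called 31 genes (0.637%) at the adjusted threshold and 274 (5.63%) at the unadjusted one. Leaving out any 1 of the 40 d libraries, so that a lone library stood for its group, gave 140 to 246 calls. Of these, 84 were higher and 56 lower without mutant replicate 1, 162 and 80 without mutant replicate 2, 50 and 90 without control replicate 1, and 66 and 180 without control replicate 2. With only the 4 libraries of 40 d the fit called 0 genes at the adjusted threshold and 242 at an unadjusted p under 0.05.

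By function, most developmental regulators were widely covered in both genotypes. The median covered share was 100% in all 4 libraries for 12 Hox complex genes, 11 NK cluster genes, 17 segment polarity and Iroquois genes, 13 T-box and GATA factors, 10 Pax genes and 14 retinal determination genes, and none of these met the gain or loss rule. Wholly covered in all 4 libraries were 8 of the Hox complex genes, 8 of the NK cluster, 11 of the segment polarity and Iroquois genes, 10 of the T-box and GATA factors, 7 of the Pax genes and 9 of the retinal determination genes. A segment polarity gene and a T-box or GATA gene were at 0% in all 4 libraries. Over all genes the median was 0% in each library. The largest differences in these lists were at bcd, the anterior morphogen, with 100% and 65.2% in the mutant and 100% and 100% in the control, and at nkd, a Wnt antagonist, with 57.8% and 65.8% in the mutant and 71.4% and 84.4% in the control. In the proneural list the achaete-scute genes differed in 1 library. ac was at 0% and 100% in the mutant and 0% and 0% in the control, and sc at 0% and 91.1% in the mutant and 0% and 0% in the control.

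The genes for the writers and readers of the mark were largely uncovered. Of 19 Polycomb group genes, 16 were at 0% in all 4 libraries, and Su(z)2 had 84.1% and 84.9% in the mutant and 82.3% and 83.9% in the control. All 12 Trithorax group and H3K27 demethylase genes were at 0%. LKRSDH itself (chr2L:7791175-7795959, minus strand) and Art4 (chr3R:9982816-9986060, minus strand) were at 0% in all 4 libraries and at 3 d, so these lists offer no check of the mutant label.

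At the insulin-like peptide genes, which encode the fly insulins, coverage of Ilp1, Ilp2, Ilp3 and Ilp4 was 100% in both mutant and both control libraries. These 4 genes lay under 1 peak, which ran from 9788571 to 9806223 and from 9788395 to 9816348 on chromosome 3L in the mutant replicates. In the control it ran from 9788922 to 9813406 and from 9789241 to 9809983. Its fold enrichment was 1.51 and 1.61 in the mutant and 1.40 and 1.47 in the control, and its −log10 q was 1.06 and 2.78 in the mutant against 0.86 and 1.16 in the control. The peak length, 17653 and 27954 bp in the mutant and 24485 and 20743 bp in the control, overlapped between genotypes. Ilp5 was at 45.2% and 0% in the mutant and 0% and 0% in the control, where a peak of 4296 bp in mutant replicate 1 reached into the gene. Ilp6, Ilp7 and Ilp8 were uncovered. Of 18 other genes of the insulin and Tor pathway, 14 were at 0% in all 4 libraries. Thor, the 4E-BP gene, had 82.4% and 100% in the mutant and 0% and 100% in the control, and the values overlapped. At foxo, the transcription factor gene of the pathway, coverage was 98.0% and 98.7% in the mutant and 97.4% and 95.6% in the control. With a gap of 0.638 points it was the 1 gene of these 18 that was higher without overlap, beside 4.34% of all genes.

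Among 19 clock genes none met the rule, 13 were uncovered in all 4 libraries, beside 60.65% of all genes, and 1 was higher without overlap, beside 4.34% of all genes. This was Clk, which encodes the activator of the clock, at 53.0% and 62.8% in the mutant and 43.9% and 33.5% in the control. tim, a repressor of Clk, was at 69.7% and 59.2% in the mutant and 63.8% and 27.8% in the control, and Pdf, the clock neuropeptide, was at 56.5% and 0% in the mutant and 0% and 0% in the control. Of 85 cytosolic ribosomal protein genes, 83 were uncovered in all 4 libraries, and of 15 glycolysis genes, 12 were uncovered.

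The lists with intermediate coverage were families of sensory, secreted and cell surface proteins, and they held the few list members that met the rule. Of 60 odorant receptor genes 1 gained and 1 lost coverage, and these counts and those of the next lists stand beside 0.316% and 0.394% of all genes. Or98a, the gain, had 100% and 78.9% in the mutant and 0% and 0% in the control, and Or49a was the loss. Of 60 gustatory receptor genes 0 gained and 1 lost, which was Gr92a with 0% and 0% in the mutant against 100% and 63.0% in the control. Of 50 Cpr cuticle protein genes, Cpr49Af gained and Cpr64Ab lost, which had 0% and 0% in the mutant and 100% and 88.2% in the control. No member of the lists of 60 ionotropic receptors, 51 odorant binding proteins, 36 neuropeptides and 32 dpr and DIP cell surface genes met the rule. Without overlap of any size, 1 gustatory receptor was higher and 7 were lower, 2 neuropeptide genes were higher and 6 lower, 2 Cpr genes were higher and 6 lower, and 6 dpr and DIP genes were higher and 2 lower, beside 4.34% and 2.95% of all genes. Counts were closer to even for the ionotropic receptors (6 higher and 6 lower), the odorant binding proteins (2 and 2) and the odorant receptors (5 and 3). The shares of all genes are lowered by 9815 genes (70.4%) that had the same coverage in all 4 libraries and cannot be higher or lower. The median of the gustatory receptors was 32.6% and 0.646% in the mutant and 66.1% and 28.9% in the control, which overlapped. That of the dpr and DIP genes did not overlap, at 76.1% and 82.8% in the mutant and 74.7% and 67.8% in the control.

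Markers of cell types in the head were read on the same scale. The 6 neuronal genes had a median of 0% in all 4 libraries, and 3 of them, elav, nSyb and para, were at 0% in each. The others were partly covered. brp had the most, at 14.42% and 32.35% in the mutant and 15.42% and 18.04% in the control, which overlapped. Syt1 was at 6.357% and 0% in the mutant and 5.627% and 0% in the control. futsch was covered in mutant replicate 2 only, at 1.154%. Of 7 photoreceptor genes, 2 were higher without overlap and 1 lower, beside 4.34% and 2.95% of all genes, with list means of 46.6% and 55.0% in the mutant and 42.0% and 26.8% in the control, and 3 were at 0% in all 4 libraries. Arr1, an arrestin of the eye, was at 98.0% and 100% in the mutant and 60.5% and 0% in the control. trp, the light-activated channel, was at 57.5% and 98.6% in the mutant, against 38.4% and 0% in the control. ninaC, a myosin of photoreceptors, was the lower gene, at 70.4% and 86.1% in the mutant and 94.7% and 87.9% in the control. Glial markers averaged 34.6% and 42.5% in the mutant and 38.3% and 22.2% in the control, muscle markers 26.98% and 15.2% in the mutant and 29.2% and 37.6% in the control, and fat body markers 40.4% and 68.2% in the mutant and 56.1% and 46.4% in the control. The part of cell composition in the gene calls was not tested.

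On a map of 26779 windows of 5 kb, 36 windows gained (0.134%) and 48 lost (0.179%) coverage by the same rule, beside 12 (0.0448%) and 19 (0.071%) at 3 d. With any 1 library left out the counts were 140 to 284 gains and 132 to 232 losses. The gains were isolated, with 36 separate runs of 1 window, of which 16 lay on 3R, where 6416 of the 26779 windows lie. The largest lay in plum, an immunoglobulin superfamily gene of axon pruning (chr3R:26525001-26530000), with 100% and 100% in the mutant and 19.9% and 0% in the control. Others lay in Octbeta3R, an octopamine receptor gene, and in beat-VII, of the beaten path family. For Octbeta3R the window had 100% and 100% in the mutant, against 23.6% and 26.4% in the control. The bases covered in both mutants and no control formed 2199 stretches with a median of 473 bp and a longest of 4628 bp, and 92.4% of their length was in mutant peaks that also overlapped a control peak. Of the length covered in both controls and no mutant, 77.9% was in control peaks that also overlapped a mutant peak.

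The losses were most numerous on other arms. Of the 48 windows, 19 were on 2R and 14 on 3L, which hold 5058 and 5623 of the 26779 windows. The longest run of 15 kb lay in DIP-lambda, a gene of cell surface proteins that bind Dpr proteins, close to the centromere (chr2R:455001-470000). It had 4.10% and 4.15% in the mutant, against 65.2% and 80.5% in the control. The next runs, of 10 kb each, were at chr3L:27665001-27675000, chr2R:1015001-1025000 and chr2R:1270001-1280000, where no protein-coding gene is annotated, and both mutant libraries were at 0%. The control libraries had 82.0% and 76.4% in the first of these, 72.1% and 85.8% in the second, and 67.3% and 79.5% in the third. Distances of these bases were taken from the centromere end of 2L, 2R, 3L, 3R and X. Of the bases covered in both mutants and no control, 2.98% lay within 5 Mb, against 27.6% of those covered in both controls and no mutant. Of 21 such mutant stretches of 3 kb or more, 1 lay within this distance, in DIP-beta on X, against 14 of 19 control stretches. The arms run from 23513712 bp (2L) to 32079331 bp (3R), so 5 Mb is a minor part of each. The share of all covered bases within this distance was not computed, so the mutant and control bases were compared only with each other. The 3 kb cut was a choice, and other lengths were not tested.

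Coverage next to the centromeres of chromosomes 2 and 3 was lower in the old mutant. Within 5 Mb of the centromere end of 2L, 2R, 3L and 3R, summed over the arms, a distance chosen after the data were seen, peaks covered 10.3% and 9.32% of the bases in the mutant libraries and 13.4% and 13.5% in the control libraries. The difference of -3.63 points did not overlap between genotypes, and the exact two-sided permutation test gave p = 0.3333, the smallest possible. In the first 1 Mb the shares were 1.47% and 0.559% in the mutant and 5.93% and 6.56% in the control. By arm, 2R had 2.17% and 0.856% in the mutant and 6.27% and 7.46% in the control, and 3L had 3.32% and 2.42% in the mutant and 8.52% and 8.75% in the control. On 3R the mutant had 4.24% and 3.53% and the control 5.41% and 7.16%. On 2L the values overlapped, at 31.4% and 30.5% in the mutant and 33.2% and 30.7% in the control replicates, with both mutants below 1 of the controls. X, which was not part of the sum, had 8.34% and 13.5% in the mutant and 7.55% and 9.66% in the control within 5 Mb, which overlapped and were higher on average in the mutant by 2.29 points. Within 10 Mb on chromosomes 2 and 3 the shares were 26.8% and 26.3% in the mutant and 28.5% and 26.4% in the control, a difference of -0.930 points (exact two-sided permutation test, p = 0.6667). Between 5 and 20 Mb the mutant had 44.0% and 43.3% and the control 44.8% and 40.5%, which overlapped.

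**Figure D4:**
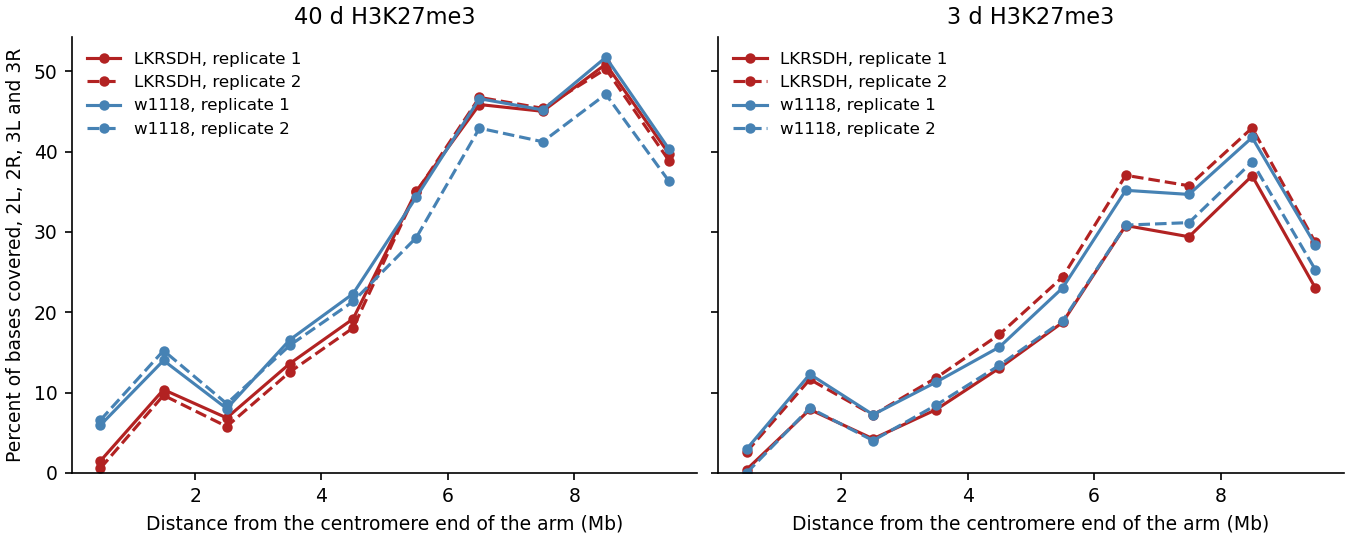
Percent of bases of 2L, 2R, 3L and 3R under H3K27me3 peaks in 1 Mb steps from the centromere end of each arm, at 40 d (left) and 3 d (right), with red for the LKRSDH mutant, blue for w1118, and solid and dashed lines for replicates 1 and 2. At 40 d both mutant lines lie below both control lines in the first 5 Mb (1.47% and 0.559% against 5.93% and 6.56% in the first step), and at 3 d the lines of the genotypes cross.

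Several measures moved with this result. At q under 0.05 the pericentric share was 3.96% and 7.72% in the mutant and 4.45% and 4.99% in the control, so that the direction turned with the stricter threshold. At 3 d the 5 Mb share was 6.69% and 10.1% in the mutant and 9.89% and 6.78% in the control, a difference of 0.0605 points. The 40 d difference minus the 3 d difference was -3.70 points (exact permutation within age over 36 arrangements, p = 0.2222, smallest possible 0.0556). The libraries with the highest fold enrichment at Abd-B had low pericentric shares at both ages, as in 40 d mutant replicate 2 (3.43 and 9.32%), 3 d mutant replicate 1 (3.44 and 6.69%) and 3 d control replicate 2 (4.61 and 6.78%). At nearly equal fold enrichment, 40 d mutant replicate 1 (2.41) had 10.3% and 40 d control replicate 2 (2.43) had 13.5%. The part of enrichment efficiency in the pericentric difference was not tested.

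**Figure D5:**
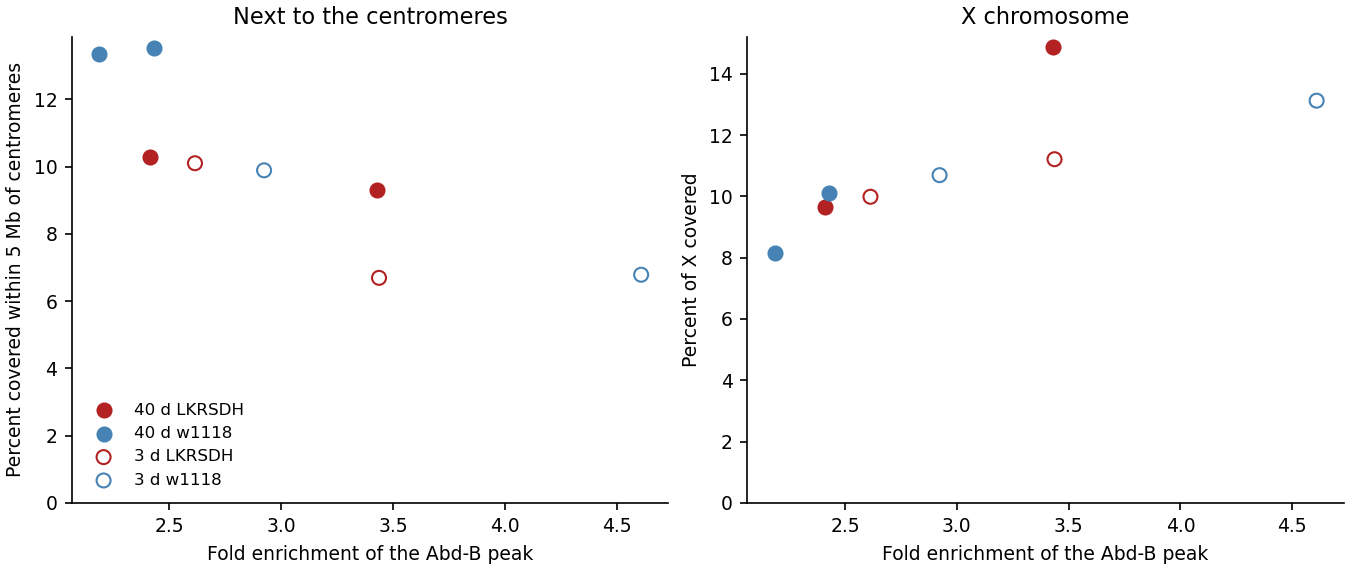
Fold enrichment of the Abd-B peak (horizontal) against the percent of bases covered within 5 Mb of the centromeres of chromosomes 2 and 3 (left) and the percent of X covered (right), with 1 point a library, filled for 40 d and open for 3 d, red for the LKRSDH mutant and blue for w1118. Of the 40 d points, mutant replicate 2 (3.43) has the lowest pericentric share (9.32%) and the highest share of X (14.9%).

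Outside the chromosome arms, on Y and on unplaced sequences, the mutant libraries had 15 and 0 peaks and the control libraries 68 and 59. These covered 19.7 and 0 kb in the mutant and 93.3 and 84.0 kb in the control (exact two-sided permutation test, p = 0.3333). At 3 d the counts overlapped, with 8 and 35 peaks in the mutant and 52 and 0 in the control, and the lists with 0 peaks were those with the highest fold enrichment at Abd-B at each age. On X, the covered share was 9.66% and 14.9% in the mutant and 8.16% and 10.1% in the control, which overlapped.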

How the data were processed

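Head chromatin of pooled male flies was immunoprecipitated for H3K27me3, and, per the labels and the methods of the study, the authors trimmed reads with Trim Galore 0.6.0, aligned them to dm6 with Bowtie2 2.5.1, filtered with SAMtools 1.19 and called broad peaks per library against input with MACS2 2.2.7.1. The deposited broadPeak columns give position, fold enrichment (a ratio of signal to input), −log10 p and −log10 q of each peak, and their score columns were not used. The sources used here give only a nominal sequencing depth, with no value per library, and the lists hold no counts. The weakest listed peaks had p-values above the cutoff stated for peak calling.

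Peaks of a library were merged, and the covered percent was computed here from the deposited coordinates for 13945 protein-coding gene bodies (Ensembl release 115) and 26779 windows of 5 kb. The shortest deposited peak was 500 bp. Libraries were compared by exact two-sided permutation tests (SciPy), and covered shares were also fitted by limma 3.58.1 (lmFit, eBayes with robust=TRUE, Benjamini-Hochberg) over 8 H3K27me3 libraries in 4 groups, after leaving out 9076 genes with equal shares in all 8. Procedures were tested on simulated data. Named genes were the 12 with the largest gap in each direction (ties to the longer gene), LKRSDH, Art4, the insulin-like peptide genes, the 5 longest runs of changed windows in each direction and, per gene list, members that met the rule and up to 4 with the largest difference. The alternatives were peak and gap thresholds, other gene and window limits, equal peak numbers or lengths, a replicate block and leaving out each library. Members and lists were chosen with earlier results of these data known. With 2 libraries a group, precision rests on the spread between them.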

Additional observations from a re-analysis of the deposited data

Results flagged for a closer look

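The test of a difference between ages (limma interaction, adjusted p under 0.05) called 31 genes, beside 274 of 4869 at an unadjusted p under 0.05 (5.63%). Among the genes with the largest gains, the mutant minus control difference at 40 d exceeded that at 3 d by 100 points at Cpr49Af, AANATL6 and CG42579. Among those with the largest losses, the same contrast was -100 points at CG18404, CG31609, CG46042, Mst57Da and 1 further gene of the plotted losses and -95.7 points at CG46388. Each of these 9 genes was at 0% in all 4 libraries at 3 d, so that the contrast equals its 40 d difference, on which the genes were chosen.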

How the results depend on the processing

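Of the alternatives, 43 kept their result, 49 moved a count by over 1.5 times or moved a share, 4 turned a direction, and the cause was not tested. The 43 include the replicate block for covered length, number of peaks and pericentric share, which by its construction leaves a mean difference unchanged. At q under 0.05 the difference in number of peaks was 443 in place of -842, gains and losses were 76 and 9 genes and 208 and 15 windows, the Jaccard difference was -0.0153, the pericentric difference was 1.12 points, and 41.7% of mutant and 51.0% of control peaks were found in the other genotype. When 50% of the peak had to be overlapped, those shares were 51.7% and 52.7%. A gap of 25 points gave 127 gains and 123 losses of genes and 377 and 284 of windows, and one of 75 points gave 22 and 23 genes and 2 and 5 windows. Genes of 2 kb or more gave 8 gains and 4 losses, and with 1 kb upstream added 36 genes lost coverage. Windows of 1 kb gave 1293 gains and 1133 losses, and windows of 10 kb gave 4 and 7. Equal numbers of top peaks gave 76 window gains, and top peaks to an equal covered length gave 92 window losses. limma called 15 genes with 1 kb upstream (2 higher, 13 lower), 35 at q under 0.05 (28 higher, 7 lower) and 0 with the 40 d libraries alone, where 242 passed at an unadjusted p under 0.05, and could not be fitted without the filter. Leaving out each library gave a covered length difference of -0.634 Mb (without w1118 replicate 2) to 2.63 Mb (without w1118 replicate 1), 155 to 199 gene gains, 127 to 168 gene losses, 140 to 284 window gains, 132 to 232 window losses and 140 to 246 limma calls, since a gap over fewer libraries is easier to reach and a lone library is assumed to vary like the other groups.

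Same-numbered libraries of the genotypes were not shown to be paired (correlation of their deviations over genes 0.0538, 2 pairs). With the replicate number as a block, limma called 12 genes, 56 windows gained coverage, and no other call moved by over 1.5 times. The middle value of the 25 list differences was 0 in every alternative tried, while 9 lists had a difference other than 0, from -30.87 to 13.29 points, and over the alternatives single lists ran from -49.47 to 50 points. The pericentric alternatives were chosen after the data were seen, and other distances, peak numbers and lengths and left-out libraries kept the direction, although at 10 Mb the difference was -0.930 points (exact permutation test, p = 0.6667). The lists carry no read counts, so what was not detected cannot be bounded.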
